A study of Mus musculus with 12 samples.

Results

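The 9 complement component genes C1qa, C1qb, C1qc, C2, C3, C4b, Cfb, Cfd and Serping1 were found by their symbols in a count table of 55487 genes. RNA-Seq was read from 12 whole lungs of miR-30a-/- mice on the C57BL/6J background, 3 per sex and exposure, and all 12 animals carried the deletion of the miR-30a gene. Newborn pups breathed hyperoxia (95% FiO2) from postnatal day (PND) 1 to PND 5 or stayed in room air, and lungs were taken at PND 21. Hyperoxia was compared with room air in females, in males and over both sexes, to ask whether the response depended on sex. Wild-type lungs were not analysed here. The lungs were perfused with saline, litters were pooled and redistributed between the exposures, and a whole lung holds all of its cell types. In such samples fewer cells of a type and less RNA per cell cannot be told apart.

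Complement is a cascade of plasma and tissue proteins that marks microbes and damaged cells for removal. In the classical pathway C1q binds a surface and its attached proteases cleave C4 and C2, which together form an enzyme that cleaves C3. In the alternative pathway factor D cleaves factor B on deposited C3, which amplifies the same step. C3 is the point where the pathways meet, and the C1 inhibitor encoded by Serping1 holds back the first proteases. Most plasma complement comes from the liver, whereas C1q is made largely by macrophages, and in the lung epithelial, mesenchymal and mesothelial cells also make components.

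Library totals ran from 8763033 to 16741694 counts, so that 3 counts, taken as the smallest detectable level, stood at 0.191 to 0.327 CPM. CPM are read counts relative to the library size, which was itself scaled by the upper quartile of each library. The lung markers Sftpc (1970 to 5233 CPM) and Scgb1a1 (3809 to 11070 CPM) were high in every lung. Xist and Ddx3y matched the labelled sex in all 12 lungs, and Mir30a had 0 counts in each, in a design with no lung that carries the gene. Of the libraries, 3 stood apart. Room air female 5 was the deepest and held the smallest share of counts on olfactory and vomeronasal receptor genes (0.453%, against 0.569% to 1.04% in the other 11). These receptor genes are used mainly in the nose, and they served here as a measure of background. Room air female 6 held 881 CPM in a list of 12 interferon and acute phase genes, against 204 to 317 CPM elsewhere, and room air male 1 held 2279 CPM in 7 skeletal muscle genes, against 112 to 191 CPM.

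All 9 members passed the filter on low counts, and each was covered by at least 32 counts in every lung. Per kilobase of exon, Serping1 was the most abundant at 71.8 ± 18.3 CPM (SD, n = 12), followed by C3 at 50.1 ± 18.4 CPM. Their ranges over lungs overlapped, although Serping1 was the higher of the pair in 12 of 12 lungs. C4b (13.1 ± 3.79 CPM per kilobase) lay 3.83-fold below C3 with no overlap. The C1q chains, which are built into the protein in equal numbers, stood at 10.5 ± 1.64 for C1qb, 10.1 ± 1.22 for C1qa and 6.77 ± 0.675 for C1qc. C1qb and C1qa were not separable, each being the higher in 6 of 12 lungs, whereas C1qa exceeded C1qc in all 12 and the ranges did not overlap. Cfd, which encodes factor D, stood at 5.62 ± 1.34.

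C2 and Cfb needed another length. Both lie side by side on chromosome 17 (positions here and below are those of GENCODE on GRCm38, the build also called mm10; C2 at chr17:34862604-34898265 and Cfb at chr17:34856374-34862518, both on the minus strand), and a read-through gene, Gm20547, runs over both on the same strand. All 3902 exon bases of Gm20547 lie in exons of C2 (1656 bases) or Cfb (2246 bases), and Gm20547 had 0 counts in all 12 lungs. Counting such reads for each gene they fit would have left counts on Gm20547, so reads that lay wholly on the shared bases were not counted in that way. The setting used for them is not given in the sources used here. With the exon bases shared by Gm20547 left out, 2216 bases remained for C2 and 579 for Cfb. On these bases C2 stood at 5.89 ± 1.06 and Cfb, which encodes factor B, at 5.23 ± 0.67 CPM per kilobase. On all exon bases the values were 3.37 for C2 and 1.07 for Cfb, and the private bases were chosen after the data were seen. On the private bases C2, Cfd and Cfb had overlapping ranges, so their order is not resolved.

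The receptor genes lay at 0.723 to 1.60 CPM per kilobase, which was taken as the level of background. By that measure background made up 1.61% of the counts of Serping1, 2.30% of C3 and 8.91% of C4b. It made up 11.2% of C1qb, 11.7% of C1qa and 17.4% of C1qc. For Cfd it came to 20.9%, and on private exon bases to 19.8% of C2 and 22.8% of Cfb. On all exon bases, a length that would hold only if reads on the shared bases had been counted for C2 and Cfb, it came to 34.7% of C2 and 111.4% of Cfb. The margin of Cfb over background thus depends on the private length.

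**Figure D1:**
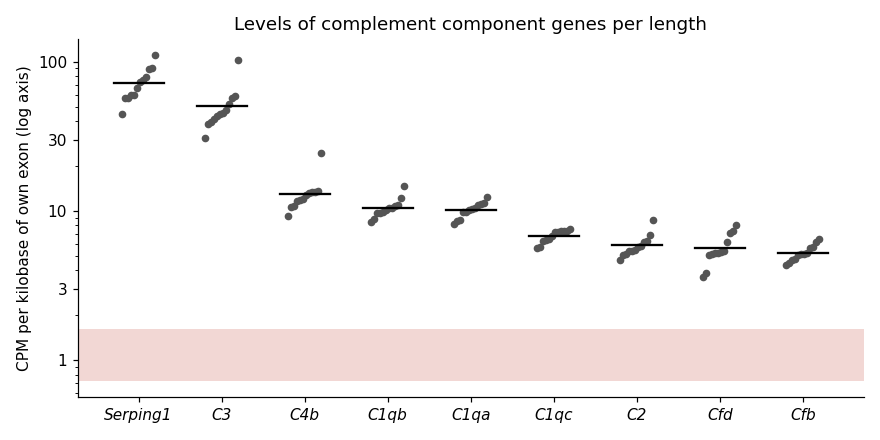
CPM per kilobase of exon (log axis) for the 9 members, with exon bases shared with Gm20547 left out for C2 and Cfb. Points are the 12 lungs and bars are means; the shaded band is the range of the receptor gene background over lungs, 0.723 to 1.60 CPM per kilobase, and Serping1 and C3 stand furthest above it.

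C4b has a near-identical neighbour, C4a, and the identity of their reads is therefore less sure. Their longest transcripts were identical at 96.1% of 5367 aligned bases, with identical runs of up to 433 bases, and 34.6% of the windows of 50 bases in C4b transcripts also occur in C4a. To show how reads tell them apart, the stretch of 30 bases within 1 exon that differs most between the pair is given here from GENCODE release M21 (GRCm38), as the transcript reads 5′ to 3′, with the 9 differing bases in capitals. The C4b stretch lies in coding exon 21 at chr17:34735436-34735465 and the C4a stretch in exon 21 at chr17:34816092-34816121, both on the minus strand.
C4b: aGGtggtggctCGagggGTtttTgattTaG
C4a: aATtggtggctAAagggACtttGgattCaA
C4a was flat, with group means of 29.9 to 32.2 CPM. It took 28.7% to 37.3% of the summed C4a and C4b counts in 11 lungs and 16.6% in room air female 5, where C4b was high and C4a was not.

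None of the 9 members was called in any comparison, a call being an adjusted p under 0.05 in edgeR's quasi-likelihood test with a fold change over 1.5. Few genes of any kind were called for hyperoxia in this fit. The share was 0.00218% of 45828 tested genes in females, 0% in males, 0.0415% over both sexes and 0% for the interaction of sex and hyperoxia. In males 412 genes were higher and 825 lower at an unadjusted p under 0.05, and for the interaction 2775 and 1100, while DESeq2 called 0 in both. The counts depended on the method. RUVr with 1 factor, which removes unwanted variation estimated from residuals, called 1883 genes in females, 17 in males, 88 over both sexes and 2106 for the interaction, none of them a member. The study's own methods name RUVr beside upper-quartile normalization, and the number of factors is not given in the sources used here. The 9 members are therefore described by their values, with the interval that the fit allows.

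In females 8 of the 9 members were lower after hyperoxia, with a median log2 fold change of -0.19. Over all genes 39.0% were lower and the median was 0.11. That full set is not matched to the members in level, here or in the tallies below, and it includes receptor genes taken as background. Per kilobase of all exon bases, Serping1 stood above 99.7% of tested genes, C2 above 51.9% and Cfb above 4.33%. The female tally rested in part on room air female 5, without which 6 of 9 were lower and the median was -0.04. It also changed when the share of receptor counts per library was added to the fit, to 4 of 9 lower and a median of 0.016, where the median of all genes was 0.0026. C2 and C3 had an unadjusted p under 0.05, a pass in the lower direction that 5.28% of all tested genes shared. The values for the upstream C1q genes lay close to 0, and those of C2, C3, C4b and Serping1 lay between -0.44 and -0.66. Markers of some cell types moved with them in females and those of others did not, none of them called. All 6 lung genes were lower (median -0.54, Sftpc -0.57 and Hopx -0.49), as were 5 of 6 mesothelial genes (median -0.34) and 7 of 7 adventitial fibroblast genes (median -0.34). The medians were also below 0 for tissue macrophage (9 of 14 lower, -0.19) and neutrophil genes (5 of 8, -0.18). So were those for red cell (5 of 5, -1.39) and interferon and acute phase genes (10 of 12, -0.65). Medians above 0 were those of hepatocyte (1 of 9 lower, 0.15) and adipocyte genes (4 of 12, 0.11). Skeletal muscle (2 of 7, 0.25) and alveolar macrophage genes (4 of 9, 0.05) joined them. The part of these lists in the members' values was not tested.

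C2, the protease that pairs with C4 in the classical convertase, had 15.2, 19.15 and 14.0 CPM in the female room air lungs and 11.2, 12.9 and 10.3 CPM in the female hyperoxia lungs. All 3 hyperoxia lungs lay under all 3 room air lungs, the only member of which that held, and 6.42% of all tested genes showed the same in females. The fitted log2 fold change was -0.50 ± 0.16 (SE), with a 95% interval from -0.80 to -0.19. The unadjusted p was 0.00374 and the adjusted p 0.339. In males C2 stood at 13.6, 12.8 and 11.96 CPM in room air and at 11.96, 12.2 and 11.4 CPM after hyperoxia. The male groups overlapped, and the log2 fold change was -0.11 ± 0.16 (adjusted p = 1.00). Without room air female 5 the female C2 value was -0.35 (adjusted p = 0.914).

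C3, the central component, had 292, 529.8 and 213 CPM in the female room air lungs and 267, 231 and 159 CPM in the female hyperoxia lungs. The groups overlapped, and 1 room air lung, female 5, stood 2.30-fold above the median of the other 11. The log2 fold change was -0.66 ± 0.29, with a 95% interval from -1.23 to -0.08 and an adjusted p of 0.381. Without room air female 5 it was -0.20 (adjusted p = 0.927), and without room air female 6 it was -0.91 (adjusted p = 0.0954). In males C3 stood at 234, 245 and 202 CPM in room air and at 301, 221 and 196 CPM after hyperoxia, a log2 fold change of 0.07 ± 0.29.

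C4b, which encodes the complement C4 that forms the convertase, had 73.3, 139 and 67.7 CPM in the female room air lungs and 77.6, 75.8 and 52.7 CPM in the female hyperoxia lungs. Apart from room air female 5 the values of the groups ran together. The log2 fold change of -0.44 ± 0.23 (adjusted p = 0.407) became -0.04 (adjusted p = 0.985) without that lung. In males C4b was 60.0, 66.5 and 68.1 CPM in room air and 74.6, 75.7 and 61.7 CPM after hyperoxia, with a log2 fold change of 0.12 ± 0.23.

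Serping1, the inhibitor of the C1 proteases, had 209, 257 and 155 CPM in the female room air lungs and 169, 139.9 and 133 CPM in the female hyperoxia lungs. The log2 fold change was -0.49 ± 0.26 (adjusted p = 0.409) and the groups overlapped. In males it had 132, 183 and 139 CPM in room air and 207, 104 and 174 CPM after hyperoxia, a log2 fold change of 0.10 ± 0.26. Without room air female 5 the female value was -0.31 (adjusted p = 0.914). The male hyperoxia lungs held both a higher and a lower value than any male room air lung.

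**Figure D2:**
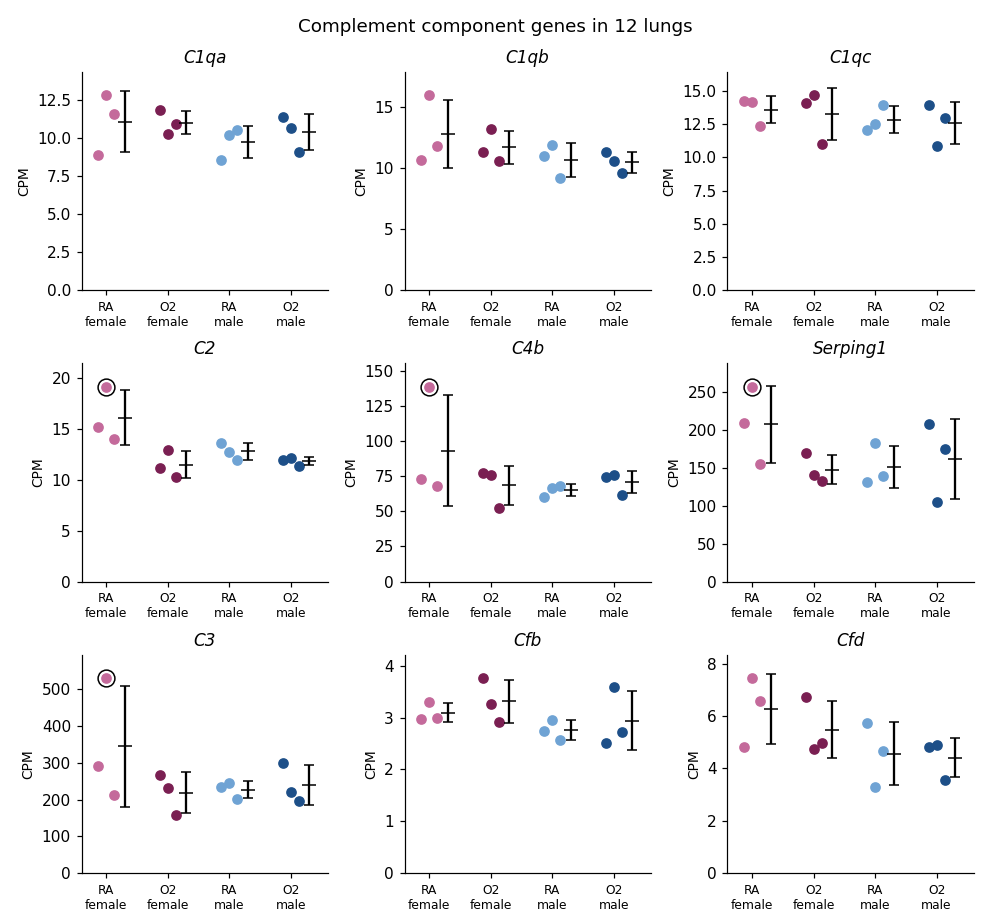
CPM (linear axes from 0) of the 9 members in each lung, for room air (RA) and hyperoxia (O2) lungs of each sex; points are lungs, and the bars beside them are mean ± SD of 3 lungs. Black rings mark room air female 5 in the panels of C2, C4b, Serping1 and C3, where it is the highest of the 12 lungs.

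The C1q genes, whose chains form the recognition molecule of the classical pathway, did not separate the groups. They lie next to each other on chromosome 4 (chr4:136880129-136898803 from C1qb to C1qa, all on the minus strand). C1qa averaged 11.1 ± 2.0 CPM in room air and 10.99 ± 0.779 CPM in hyperoxia-exposed females (SD, n = 3 each). C1qb averaged 12.8 ± 2.78 and 11.7 ± 1.37 CPM, and C1qc 13.6 ± 1.04 and 13.3 ± 1.98 CPM. Their log2 fold changes in females were -0.01 ± 0.17, -0.14 ± 0.17 and -0.04 ± 0.16, and in males 0.09 ± 0.17, -0.02 ± 0.18 and -0.02 ± 0.16. Over both sexes the 95% intervals ran from -0.20 to 0.28 for C1qa, from -0.32 to 0.16 for C1qb and from -0.25 to 0.19 for C1qc, so that a change of the 1.5-fold used for calls lies outside them. A list of 14 tissue macrophage genes, of which Lyve1, Stab1 and Csf1r had the highest levels, summed to 551 to 717 CPM in room air and 518 to 564 CPM in hyperoxia-exposed females, and to 478 to 615 and 471 to 652 CPM in males. None of the 14 was called in any hyperoxia comparison.

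The alternative pathway members had the lowest CPM of the 9. Cfb averaged 3.10 ± 0.183 CPM in room air and 3.31 ± 0.423 CPM in hyperoxia-exposed females, a log2 fold change of 0.10 ± 0.26, and it was the only member with a value above 0 in females. In males Cfb averaged 2.76 ± 0.194 and 2.95 ± 0.571 CPM (0.08 ± 0.27). Cfd averaged 6.27 ± 1.34 and 5.48 ± 1.09 CPM in females (-0.19 ± 0.24) and 4.56 ± 1.22 and 4.41 ± 0.755 CPM in males (-0.06 ± 0.26). Without room air female 5 the female Cfd value was -0.04. Cfd is a known product of fat cells. The 12 adipocyte genes of a marker list, led by Lipe, Plin4 and Plin1, summed to 144 to 163 CPM over all lungs, and the exposures overlapped in both sexes. Background was not estimated for this or the other marker lists, so such sums need not reflect the content of those cells.

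In males the 9 members lay between -0.11 and 0.12 on the log2 scale, 4 lower and 5 higher, with adjusted p-values of 1.00 throughout. In none of them did the hyperoxia lungs all lie under the room air lungs, which 3.89% of all tested genes showed in males. Over both sexes 7 of 9 were lower, with a median of -0.12 against 0.03 for all genes, and C2 was furthest from 0 at -0.30 ± 0.11 (95% interval from -0.52 to -0.09, unadjusted p = 0.011, adjusted p = 0.927). With room air female 5 left out, 5 of 9 were lower over both sexes and the median was -0.01. With the receptor share in the fit 6 of 9 were lower and the median was -0.02.

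The female response minus the male response was negative for 8 of 9 members, with a median of -0.13 against 0.12 for all genes. It was -0.73 ± 0.42 for C3, -0.59 ± 0.36 for Serping1, -0.56 ± 0.32 for C4b and -0.38 ± 0.22 for C2. The adjusted p-values lay between 0.578 and 0.991, so a difference between the sexes in the response was not shown for any member. The normal intervals exclude a 1.5-fold difference in both directions for C1qa and C1qc only. For C1qa the lower bound of -0.576 does so narrowly, and an interval that allows for the few lungs would be wider, so this exclusion is not secure. Without room air female 5 it was negative for 4 of 9, with a median of 0.0052, and stood at -0.28 for C3, -0.41 for Serping1, -0.16 for C4b and -0.24 for C2. With the receptor share in the fit it was negative for 5 of 9, with a median of -0.015 against 0.013 for all genes. It then stood at -0.061 for C3, 0.060 for Serping1, -0.17 for C4b and -0.25 for C2.

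**Figure D3:**
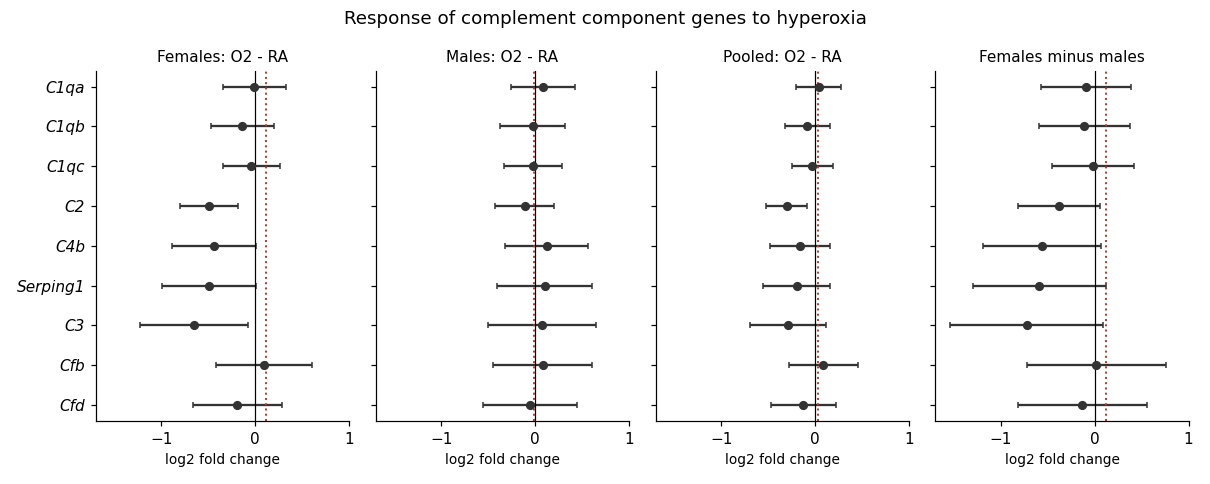
Log2 fold changes of the 9 members with 95% intervals for hyperoxia against room air in females, in males and over both sexes, and for the female minus the male response. The dotted line is the median over all 45828 tested genes; C2, C3, C4b and Serping1 lie to the left in females and near 0 in males, and no member passed the adjusted threshold.

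The levels of many genes moved with the background share of the library, those of several members among them. Across the 12 lungs log2 CPM of Serping1 fell with the log2 share of counts on receptor genes (Pearson r = -0.966, permutation p = 1e-05, the smallest that 100000 permutations can give, adjusted p = 9e-05 over 9 relations, Spearman rho = -0.979, permutation p = 1e-05, adjusted p = 9e-05). Without the 2 lungs farthest from the median share r was -0.945, and it was -0.997 in females and -0.936 in males. For C3 r was -0.845 (permutation p = 0.00051, adjusted p = 0.00229, rho = -0.706, permutation p = 0.0135, adjusted p = 0.0607), and -0.614 without those lungs. For C4b r was -0.711 (permutation p = 0.00926, adjusted p = 0.0278, rho = -0.392, permutation p = 0.209, adjusted p = 0.376) and -0.316 without them, so this relation rests on them. For C1qc r was -0.644 (permutation p = 0.0235, adjusted p = 0.0501, rho = -0.587, permutation p = 0.0479, adjusted p = 0.144) and -0.629 without them. For C2 r was -0.63 (permutation p = 0.0278, adjusted p = 0.0501, rho = -0.245, permutation p = 0.445, adjusted p = 0.572), with -0.41 without those lungs, -0.871 in females and 0.331 in males. By rank the relation passed the adjusted threshold for Serping1 only. For the other 4 members the adjusted permutation p of r was 0.0972 or more. Among 44025 tested genes other than the receptor genes, r was as far from 0 as that of Serping1 in 0.663%, of C3 in 15.6%, of C4b in 32.4%, of C1qc in 40.8% and of C2 in 42.6%. Relations of the strength seen for C4b, C1qc and C2 were thus common in these libraries. The share was 0.453% to 0.819% in room air and 0.738% to 0.936% in hyperoxia-exposed females, and 0.709% to 0.996% and 0.569% to 1.04% in males. With the share as a covariate the female log2 fold change was 0.02 for Serping1, -0.12 for C3, -0.11 for C4b and -0.39 for C2. What part the background share has in the female values was not tested further.

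**Figure D4:**
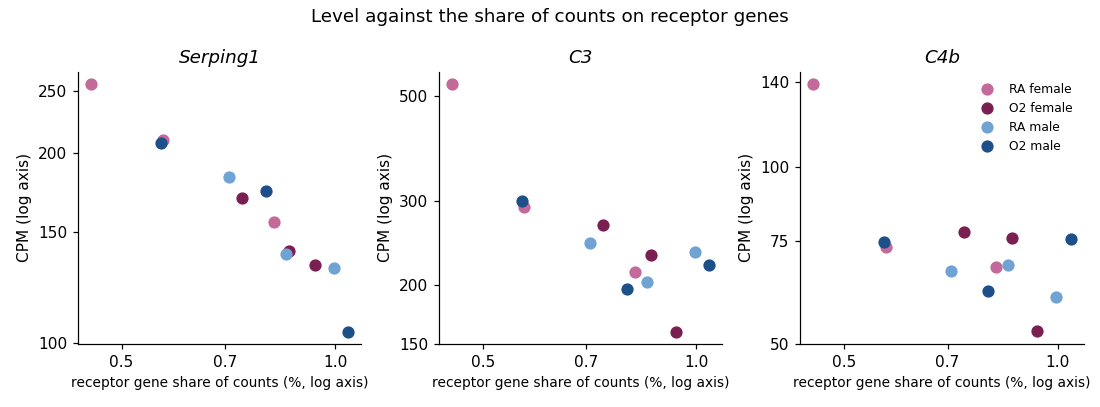
CPM (log axis) of Serping1, C3 and C4b against the percentage of counts on olfactory and vomeronasal receptor genes (log axis), 1 point per lung. Serping1 falls along 1 line over all 12 lungs, whereas for C4b the lung at the far left, room air female 5, stands alone.

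Room air female 5 was the highest of 12 lungs for C1qa, C1qb, C2, C3, C4b, Cfd and Serping1, and the third highest for C1qc and Cfb. It also led in the mesothelial markers (238 CPM summed over 6 genes against 130 to 186 CPM elsewhere), in Sftpc (5233 CPM) and Scgb1a1 (11070 CPM). Msln, a mesothelial gene, stood at 60.2 CPM there and at 25.2 to 37.7 CPM in the other lungs. Room air female 6, in which the interferon-induced Gbp2 reached 347 CPM against 21.6 to 39.5 CPM elsewhere, had the lowest C2, C3, C4b and Serping1 of the 3 female room air lungs. The parts of these features in the members' values were not tested.

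Across the 12 lungs the members fell into a loose pattern, given as description only, since the lungs share depth and background. C3 and C4b were most alike (Pearson r = 0.918 of log2 CPM), followed by C2 with C3 (0.813). The C1q genes were less alike, with 0.523 for C1qa and C1qb, 0.310 for C1qb and C1qc and 0.129 for C1qa and C1qc. Among 21396 genes with a mean of at least 5 CPM, the gene most like C4b was Msln (0.967), ahead of C3. Cd55, a complement regulator, was among the 5 genes most like C3 (0.931). C1qb was most like Chad (0.903) and Fcgr3, a receptor for antibody on macrophages and other myeloid cells (0.902). C1qa was most like Tmem120a (0.897), C1qc was most like Mlycd (0.914), C2 was most like Cep19 (0.934) and Cfd was most like Nsmce1 (0.881). Among 21397 genes Cfb was most like Snx10 (0.882). For Serping1 the top 3, Flii, Krit1 and Prkar1a, each reached 0.993.

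Females and males were also compared over both exposures. All 9 members were higher in females, with a median log2 difference of 0.18 against -0.03 for all genes, and none was called, where 0.0228% of 43775 autosomal genes were. All 9 were still higher, with a median of 0.08, when room air female 5 was left out. With the receptor share in the fit 8 of 9 were higher, with a median of 0.099, and Serping1 was lower. Cfd had the largest value, with 4.81, 7.44 and 6.56 CPM in room air and 6.74, 4.73 and 4.98 CPM in hyperoxia-exposed females, and 5.73, 3.30 and 4.66 CPM and 4.80, 4.90 and 3.54 CPM in the corresponding males. The groups overlapped. The log2 difference was 0.39 ± 0.18 (95% interval from 0.04 to 0.73, unadjusted p = 0.0355, adjusted p = 0.641).

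The rest of the complement system was read from a list of 46 other genes, all of which were tested. None was called in females, in males or over both sexes. In females 20 of 46 were lower and the median log2 fold change was 0.08, near the 0.11 of all genes. At an unadjusted p under 0.05 there were 10 of 46 in females, 0 in males and 3 over both sexes, where the shares of all tested genes were 12.6%, 2.7% and 5.2%.

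Of the terminal pathway, whose proteins form the membrane attack complex, C7 had the smallest unadjusted p in females. C7 stood at 266, 221 and 147 CPM in female room air lungs and at 126, 114 and 126 CPM in female hyperoxia lungs, so the groups did not overlap. Its log2 fold change was -0.80 ± 0.28 in females (unadjusted p = 0.00775, adjusted p = 0.3515) and -0.21 in males (adjusted p = 1.00). In females it was -0.27 with the receptor share as a covariate (adjusted p = 0.997), and RUVr with 1 factor called it at -0.76 (adjusted p = 0.0427). C8a, of the same complex, was on the other side at 0.47 ± 0.19 in females (adjusted p = 0.358), with 6.55 to 9.95 CPM in room air and 10.1 to 13.8 CPM after hyperoxia. The C8a value was 0.22 with the covariate (adjusted p = 0.982), 0.29 without room air female 5 (adjusted p = 0.914) and 0.47 with RUVr (adjusted p = 0.0174, under the 1.5-fold limit). C1s1, a protease carried by C1q, was at -0.49 ± 0.18 in females (adjusted p = 0.354), with 50.3, 67.5 and 43.8 CPM in room air and 39.4, 36.8 and 38.8 CPM after hyperoxia. Like C2 and C7, C1s1 had all female hyperoxia lungs under all female room air lungs without passing the adjusted threshold. Of all tested genes 6.42% showed the same in females, and so did some others of the list. The C1s1 value was -0.14 once the receptor share entered the fit and -0.30 without room air female 5. With RUVr it was -0.47 (adjusted p = 4.1e-05), under the 1.5-fold limit.

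Itgb2 and Itgam encode the chains of complement receptor 3, which binds C3 fragments on myeloid cells. Over both sexes Itgb2 was at -0.34 and Itgam at -0.32 (adjusted p = 0.927 for both). Under the alternatives Itgb2 ran from -0.40 to -0.25 over both sexes. Its adjusted p fell under 0.05 in at least 1 of them, always under the 1.5-fold limit, whereas that of Itgam did not. In males the smallest unadjusted p-values of the list belonged to C5ar1, the receptor for the C5a fragment, at 0.25 (unadjusted p = 0.122), Fcna, a ficolin of the lectin pathway, at 0.29 (unadjusted p = 0.175), and Itgb2 at -0.24 (unadjusted p = 0.189). Single lungs carried part of these male values. Fcna was 10.99 CPM in hyperoxia male 2 against 6.58 to 7.90 CPM in the other 5 male lungs, and its value was 0.10 without that lung. Itgb2 was at -0.12 without room air male 4.

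**Figure D5:**
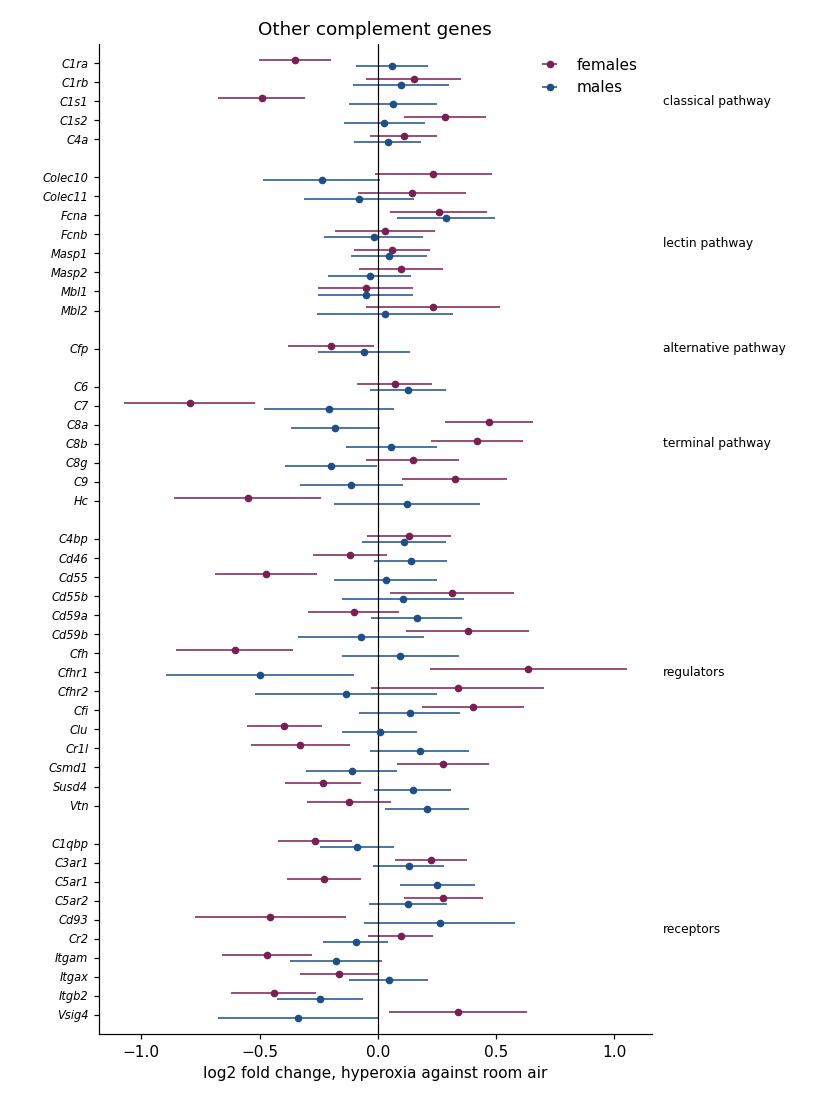
Log2 fold change of hyperoxia against room air for the 46 other complement genes, in females and in males, with SE bars and grouped by role. The male points gather near 0, the female points spread to both sides from C7 at -0.80, and none passed the adjusted threshold.

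Between the sexes 2 of the 46 were called, both higher in females and both on the X chromosome. Cfp, which encodes properdin, the stabiliser of the alternative convertase, had 13.8 to 21.7 CPM in female and 8.47 to 13 CPM in male lungs, without overlap, and a log2 difference of 0.64 (adjusted p = 0.00689). Vsig4, a macrophage receptor for C3 fragments, had 2.44 to 4.55 CPM in female and 1.11 to 2.74 CPM in male lungs, with a log2 difference of 0.92 (adjusted p = 0.0275). Of 1802 X-linked genes 25.3% were called, all 456 of them higher in females. The median log2 difference of X-linked genes was 0.75, and 62.0% of them differed by as much as Cfp or more. The estimated background was 14.6% of the counts of Cfp and 64.7% of those of Vsig4, and 9 X-linked receptor genes, used as background, had a median log2 difference of 0.95. Both calls depended on single lungs and on the fit. That of Cfp was lost once the receptor share was added, at 0.49 (adjusted p = 0.00024) and so under the 1.5-fold limit. That of Vsig4 was lost when at least 10 counts were required in every library. Without room air female 5, room air male 1 or hyperoxia female 2 the Cfp difference was under the 1.5-fold limit, at 0.56 (adjusted p = 0.022) for room air female 5. Vsig4 had an adjusted p over 0.05, of up to 0.0949, without hyperoxia female 2, hyperoxia male 1 or 3, or room air male 4 or 5.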

How the data were processed

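The data are RNA-Seq counts of 12 lungs. The titles give sex and exposure, which make 4 groups of 3. The authors trimmed reads with Trim Galore, aligned them with STAR to mm10 (GRCm38) and deposited raw counts per gene from featureCounts, without normalization. Versions, annotation and strand setting are not given in the sources used here. Library kits differ between sources, NEBNext Ultra II Directional in the labels and QIAseq Stranded Total RNA in the methods. The labels give 1 lane and no batch. They do not tie lungs to litters, and each lung is taken as 1 animal from its title's number.

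Counts were fitted with edgeR 4.0.16 (R 4.3.3) by robust quasi-likelihood over the 4 groups. Library sizes were normalized by the upper quartile, and filterByExpr left 45828 genes (biological coefficient of variation 0.177). The 95% intervals are normal intervals from the SE. A call needed a fold change over 1.5 and an adjusted p under 0.05 (Benjamini-Hochberg over all genes). Exon lengths and positions came from GENCODE M21, which matched 55227 of 55487 genes. Background was the median reads per kilobase on 2003 receptor genes (symbols starting Olfr or Vmn) times exon length. C4 transcripts were aligned with biopython 1.88.

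Depth was 8763033 to 16741694 counts per lung, and floors of 3 counts cover counting error only. The named genes were all 9 members, other complement genes called or with the 3 smallest p-values per hyperoxia comparison, the 5 most correlated genes per member, and up to 3 genes per marker list. Members and lists were chosen with earlier results of these data known. Alternatives were TMM, DESeq2 1.42.0, other filters, RUVr with 1 factor, the receptor share as a covariate, fits of 1 sex, an additive model, an animal number block and each lung left out.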

Additional observations from a re-analysis of the deposited data

Results flagged for a closer look

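Room air female 5 lay far from the other samples for C3 and C4b, where its gap to the nearest lung, divided by the range of the group, exceeded Dixon's 95% critical value of 0.625 for 6 samples. For C3 its 530 CPM stood apart among the 6 room air lungs and among the 6 female lungs, and for C4b its 139 CPM did so in both. These were 4 of the 36 groups tested (9 members in 4 groups of 6), where chance gives about 1 in 20, and the 4 share 1 lung. The ratio of its value to the median of the other 11 lungs was 2.30 for C3, 2.04 for C4b, 1.65 for Serping1 and 1.09 for C1qc.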

How the results depend on the processing

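Member values were computed under 855 combinations of member, comparison and alternative. None was called and 6 had an adjusted p under 0.05, all with RUVr and 1 factor. These were Serping1 in females (-0.46, adjusted p = 3.5e-06), over both sexes (-0.20, adjusted p = 0.015), for the interaction (-0.53, adjusted p = 0.00034) and between sexes (0.17, adjusted p = 0.038), and C2 in females (-0.49, adjusted p = 0.0047) and over both sexes (-0.30, adjusted p = 0.044).

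Some directions turned. With the receptor share as a covariate, values turned for C1qa (0.091), C1qb (0.021), C1qc (0.12) and Serping1 (0.016, from -0.49) in females, C1qc over both sexes (0.027), C3 (-0.054) and Serping1 (-0.044) in males, Serping1 between sexes (-0.018) and its interaction (0.060, from -0.59). The interactions of C1qa (0.031), C1qb (0.090), C1qc (0.18) and Cfb (-0.015) turned as well. In females, C1qa was 0.060 and C1qc 0.028 with 10 counts in every library, C1qa was 0.017 in the 6 female lungs alone, and Cfb was -0.0038 with DESeq2, which put C1qa over both sexes at -0.0026. Leaving out 1 lung gave, in females, -0.14 to 0.11 for C1qa, -0.25 to 0.056 for C1qb, -0.12 to 0.081 for C1qc and -0.012 to 0.18 for Cfb. In males it gave -0.12 to 0.070 for C1qb, -0.093 to 0.079 for C1qc, -0.12 to 0.20 for C3, -0.061 to 0.19 for Cfb, -0.23 to 0.14 for Cfd and -0.11 to 0.35 for Serping1. Over both sexes it gave -0.025 to 0.10 for C1qa, -0.14 to 0.017 for C1qb, -0.069 to 0.031 for C1qc and -0.25 to 0.044 for C4b. The causes were not tested.

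Counts of called genes, of all kinds, depended on the setting. In females the 1 call became 0 with TMM, 8 without a filter, 44 with DESeq2, 22 with the covariate, 80 in the 6 female lungs alone, 1883 with RUVr and 0 to 206 with 1 lung left out, the highest without room air female 6. In males 0 became 6 with the covariate, 2 in the 6 male lungs, 17 with RUVr and 0 to 1 with 1 lung left out. Over both sexes 19 became 40 with DESeq2, 88 with RUVr and 3 to 37 with 1 lung left out. The interaction went from 0 to 2106 with RUVr. Between the sexes 559 became 266 with 10 counts in every library, 1004 without a filter, 976 with the covariate and 1006 with RUVr. Cfp was called under 15 of 19 alternatives and Vsig4 under 13 of 19. C7 in females, not called, was called with RUVr only.

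The replicate block in females, for the shared animal numbers 2 and 5, called 451 genes and put C1qa at 0.12. Deviations of same-numbered lungs correlated at 0.0596 for number 2 and -0.166 for number 5. These values were not set against lungs of different numbers, so they cannot decide whether the numbers pair the lungs. Depth limits Cfb most, with 32 to 52 counts per lung.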

Other observations

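The other marker lists are given as values. In 5 red cell genes the sum was 5118 to 7881 CPM in room air and 1247 to 4650 CPM in hyperoxia lungs over both sexes, with no overlap. Of these Alas2, Hbb-bt and Hba-a2 were called lower over both sexes, at log2 fold changes of -1.11, -1.28 and -1.24 (edgeR adjusted p = 0.0129, 0.0205 and 0.0233). Hba-a1 was at -1.46 (adjusted p = 0.0555) and Hbb-bs at -1.17 (adjusted p = 0.244).

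None of 9 alveolar macrophage genes, led by Chil3, Atp6v0d2 and Ear2, was called in a hyperoxia comparison. Their sum was 175 to 373 CPM in room air and 203 to 332 CPM in hyperoxia-exposed females, and 147 to 216 and 229.6 to 339.5 CPM in males, where the groups did not overlap. Chil3 alone was 53.5 to 107 CPM in room air and 126 to 225 CPM in hyperoxia-exposed males, and without it the male sums were 93.9 to 109 and 104 to 115 CPM, which overlap (the list without Chil3 was chosen after the data were seen). Likewise none was called among 9 hepatocyte genes (46.8 to 80.4 CPM summed), 8 neutrophil genes (54.4 to 104 CPM), 6 mesothelial genes, 7 adventitial fibroblast genes (202 to 361 CPM), 12 adipocyte genes, 7 skeletal muscle genes, 6 lung genes or 12 interferon and acute phase genes. In females 8 of these 12 interferon and acute phase genes were lower at an unadjusted p under 0.05 and 1, Il6, was higher, where 12.6% of all genes had such a p in either direction. The median log2 fold change of the 12 was -0.65. Room air female 6 carried much of this, and without it 5 were lower and 1 higher at that p, the median was -0.30 and Gbp2 went from -2.31 to -0.44.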
